A study of Mus musculus with 16 samples.

Results

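Gene expression was compared between hearts of mice with the genotype MuRF1 +/- MuRF2 -/- and hearts of wild type mice, MuRF1 +/+ MuRF2 +/+. The first group kept 1 functional MuRF1 allele and had none of MuRF2, and is called MuRF1 het MuRF2 null. The comparison holds 8 of the series' 16 arrays, 4 of each genotype, taken by the genotype in the sample titles. The other 8 arrays, 4 from mice null for both genes (double null) and 4 from MuRF1 -/- MuRF2 +/- mice (MuRF1 null MuRF2 het), are used where a value in MuRF1 het MuRF2 null hearts is set against them. All mice were 12 weeks old and, per the design text, matched for strain, though the strain of the hearts is not named, nor is the part of each gene that was deleted. No other transgene or treatment is listed. RNA came from heart tissue with no sorting of cells listed, so a lower signal can come from fewer cells of a type or from less RNA per cell, and the arrays cannot tell these apart. Each array carried 1 replicate, heart RNA labelled with the red dye Cy5, against a common reference, RNA pooled from whole newborn C57BL/6 pups, labelled with the green dye Cy3. The measure is the log2 ratio of Cy5 over Cy3, on which a difference of 1 is a 2-fold change, and every value below is on that scale unless Cy5 alone or Cy3 alone is named. The titles call the replicates biological and do not say whether any pooled several mice. A replicate is called a heart below, and p-values measure the spread among these samples.

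The genes Trim63, Trim55 and Trim54 encode MuRF1, MuRF2 and MuRF3, a small family of RING finger proteins of striated muscle, where they associate with the sarcomere and microtubules. MuRF1 is an E3 ubiquitin ligase: it marks muscle proteins for the proteasome, and its gene is switched on in wasting muscle, in part through FoxO transcription factors. MuRF1 and MuRF2 share partners and are known to stand in for one another in the heart.

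The stretches of 250 bases before the transcription start are shown for 4 of the genes named below. Trim63 is the targeted gene with 1 allele left. Pdk4 and Pnpla2 are regulators of fuel use and fat breakdown whose signal fell, and Dbp had the largest rise among the genes said to have risen. How well the call of each gene held is given below. They are the sequences of RefSeq for the mouse assembly GRCm38.p6, written 5′ to 3′ on the strand of the gene. A promoter was at hand for 34 of the 40 genes chosen by rule, and none for Trim55. Capitals mark matches, on either strand, to 5 motifs: GTAAACA (a FoxO site), CACGTG (an E-box), TTATGTAA (the site of the Dbp family), the nuclear receptor repeat DR1 and TATAAA.
Trim63, chr4:134314870-134315119, plus strand: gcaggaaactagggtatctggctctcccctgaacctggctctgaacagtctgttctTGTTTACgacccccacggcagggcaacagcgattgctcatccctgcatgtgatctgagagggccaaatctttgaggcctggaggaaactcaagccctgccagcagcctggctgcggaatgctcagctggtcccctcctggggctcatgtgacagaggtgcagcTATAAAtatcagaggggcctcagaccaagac
Pdk4, chr6:5496279-5496528, minus strand: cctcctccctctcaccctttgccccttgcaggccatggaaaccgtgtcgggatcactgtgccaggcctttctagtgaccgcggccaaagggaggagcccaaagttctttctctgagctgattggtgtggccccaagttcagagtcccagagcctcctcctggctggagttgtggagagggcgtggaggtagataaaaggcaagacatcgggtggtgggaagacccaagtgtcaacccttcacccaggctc
Pnpla2, chr7:141454938-141455187, plus strand: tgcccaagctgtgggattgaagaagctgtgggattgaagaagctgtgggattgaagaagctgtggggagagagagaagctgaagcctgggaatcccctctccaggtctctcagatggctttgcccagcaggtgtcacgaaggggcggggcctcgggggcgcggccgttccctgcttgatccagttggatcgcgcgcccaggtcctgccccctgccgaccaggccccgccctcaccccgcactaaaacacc
Dbp, chr7:45704997-45705246, plus strand: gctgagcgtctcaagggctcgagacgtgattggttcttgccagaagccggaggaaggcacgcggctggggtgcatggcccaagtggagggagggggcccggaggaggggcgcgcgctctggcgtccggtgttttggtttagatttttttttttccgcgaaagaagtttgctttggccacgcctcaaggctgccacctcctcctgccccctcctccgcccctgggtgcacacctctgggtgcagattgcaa
The Trim63 stretch held TATAAA starting 31 bases before the start and GTAAACA, on the other strand, 194 bases before it. Over 32851 promoters of the same length, 12.4% held TATAAA, 3.17% held GTAAACA, 6.02% held CACGTG, 0.819% held TTATGTAA and 0.0335% held DR1. The Pdk4, Pnpla2 and Dbp stretches held none of these letters.

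The 4 MuRF1 het MuRF2 null arrays lay together on a slide of their own, scanned on another day and read with another version of the image software than the other 12 arrays. The wild type arrays lay on 2 other slides, replicates 1 and 2 on slide 1 and replicates 3 and 4 on slide 3, so genotype, slide, scan day and software version cannot be told apart in any value below. The reference channel shows a part of this, because every array carried the common reference in Cy3. Whether every slide received the same preparation of it was not tested, and a difference in Cy3 does not measure how far Cy5 moved. Cy3 alone differed between the slides of the groups at 6781 of 12330 genes tested (55%; limma, adjusted p under 0.05), with a median absolute difference of 0.114. For comparison, the slide of the MuRF1 null MuRF2 het arrays differed from the wild type arrays at 38 genes in Cy3 (0.308%), with a median of 0.0338. The number of probes well above background was 16129 to 17391 per array in Cy5 for MuRF1 het MuRF2 null and 15171 to 16664 for wild type, and 24529 to 25197 against 22080 to 23084 in Cy3. In Cy5 it was only 6037 to 14503 for double null and 6402 to 15067 for MuRF1 null MuRF2 het, which bears on every value set against these hearts. Spots marked as irregular numbered 106 to 126 per array on the MuRF1 het MuRF2 null slide and 2 to 7 on wild type arrays. Because the reference differed, each gene was also tested in Cy5 alone, and a gene is said here to have risen or fallen only where it passed in the ratio and, in the same direction, in Cy5 alone.

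The targeted genes were examined first. Trim63 fell in MuRF1 het MuRF2 null hearts. Its log2 ratio was 2.11, 2.13, 1.83 and 1.70 in the 4 MuRF1 het MuRF2 null hearts and 2.51, 2.65, 2.71 and 2.67 in the 4 wild type hearts. The groups did not overlap, and every heart with 1 MuRF1 allele lay below every wild type heart. The means were 1.94 ± 0.21 (SD, n = 4) and 2.63 ± 0.088 (SD, n = 4), a 1.62-fold lower ratio (difference -0.69, SE 0.14, adjusted p = 0.0181, limma). Cy5 alone fell by 0.60 (adjusted p = 0.0203), and Cy3 alone differed by 0.073. The call was lost without wild type replicate 2 or 4 or without MuRF1 het MuRF2 null replicate 3 or 4, with adjusted p values of 0.0572 to 0.0670, and against the wild type arrays of either slide alone (0.155 and 0.161). In the same fit, the Trim63 ratio was -1.04 to -0.39 in double null and -0.85 to -0.34 in MuRF1 null MuRF2 het hearts, 2.66 and 2.58 below MuRF1 het MuRF2 null hearts (adjusted p = 2.84e-08 and 4.68e-08). The probe was above background in Cy5 on all 8 arrays of the first comparison but on only 2 of 4 double null and 2 of 4 MuRF1 null MuRF2 het arrays, so these 2 differences are partly against background signal and their size is uncertain. All 8 hearts without a MuRF1 allele lay below the hearts with 1 allele. A dimmer Trim63 probe, above background on 2 MuRF1 het MuRF2 null and 3 wild type arrays, differed by -0.012.

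Trim55, the gene of MuRF2, gave opposite differences in its ratio and in its heart channel. Its ratio was -1.32, -1.53, -1.20 and -1.09 in MuRF1 het MuRF2 null hearts and -1.57, -1.90, -1.62 and -1.81 in wild type hearts, which is 0.44 higher (SE 0.25) and did not pass (adjusted p = 0.408). Its Cy5 intensity was 6.90, 6.79, 6.77 and 6.79 against 7.50, 7.32, 8.21 and 7.88, lower on every MuRF1 het MuRF2 null array by a mean of 0.91 (adjusted p = 0.0267). Its Cy3 intensity, from the common reference, was 9.16, 9.23, 8.90 and 8.83 against 10.01, 10.12, 10.71 and 10.62, lower by a mean of 1.33 (adjusted p = 8.09e-09). The reference signal of this probe thus dropped further than the heart signal. Whether the probe lies in the deleted part of Trim55 is not known, so its level is no check of the genotype. Trim54, the gene of MuRF3, had ratios of 2.33, 2.04, 2.33 and 2.48 and 2.36, 2.26, 2.01 and 2.13, which overlapped (difference 0.11, SE 0.11, adjusted p = 0.721). Against double null hearts the Trim54 ratio was lower by 0.50 (adjusted p = 0.00566).

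**Figure D1:**
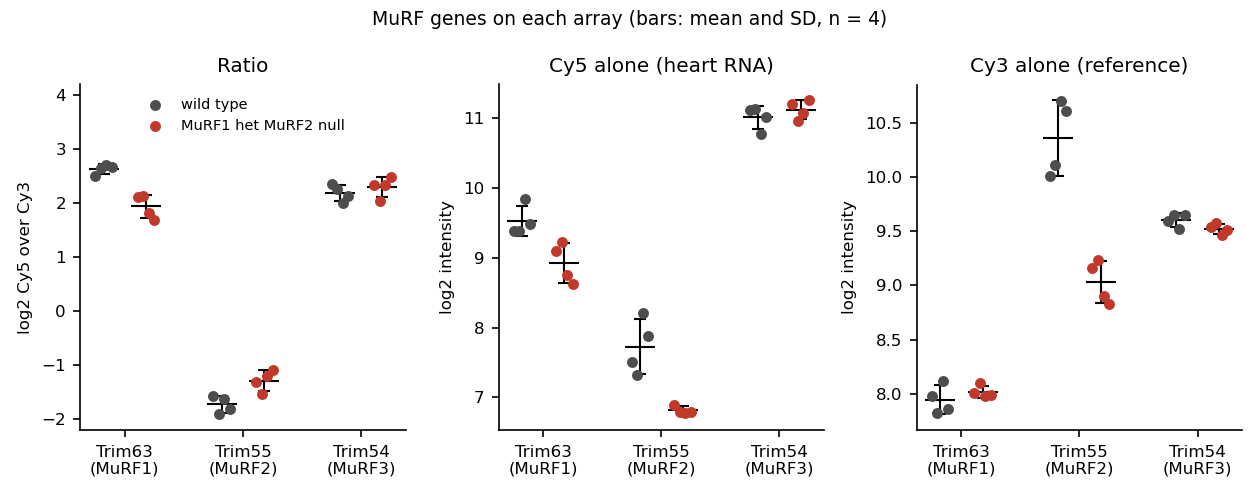
Log2 ratio, log2 Cy5 intensity and log2 Cy3 intensity of Trim63, Trim55 and Trim54 on each of the 4 wild type (grey) and 4 MuRF1 het MuRF2 null (red) arrays; black bars are means and SDs. Trim63 is lower in the ratio and in Cy5 with a level reference signal, Trim55 is lower in both channels, and Trim54 overlaps between the groups.

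Across all genes, 89 of 12330 tested (0.722%) passed in the ratio and in Cy5 alone in the same direction: 23 rose (0.187%) and 66 fell (0.535%). In the ratio by itself 244 genes passed (1.98%), 80 higher (0.649%) and 164 lower (1.33%), and in Cy5 alone 636 passed (5.16%), 252 higher (2.04%) and 384 lower (3.11%). Of the 155 genes that passed in the ratio without support from Cy5 alone, 130 had a Cy3 signal that passed opposite to the ratio (83.9%). This share was 15 of the 89 (16.9%) and 36.1% of all genes tested. Because the ratio is Cy5 over Cy3, choosing genes by the ratio and Cy5 itself favours this contrast. It therefore cannot show that the 89 are free of the reference. Cy3 passed in either direction at 48 of the 89 (53.9%), against 55% of all genes tested. Most changes were small: among the 89, 1 rise and 6 falls were over 2-fold. The 4 arrays of each group did not overlap at 1308 genes in both measures (10.6%) and at 86 of the 89. Without 1 array, the count of 89 became 38, 23, 72 and 34 without wild type replicates 1 to 4, and 31, 32, 49 and 43 without MuRF1 het MuRF2 null replicates 1 to 4. It was 24 against the wild type arrays of slide 1 alone and 0 against those of slide 3 alone (limma; 1128 genes with an unadjusted p under 0.05 in the ratio, and 149 passing in Cy5 alone), and 7 with the authors' own log ratio. It was 993 when the fit held the 8 arrays of this comparison only, without the spread of the other genotypes.

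**Figure D2:**
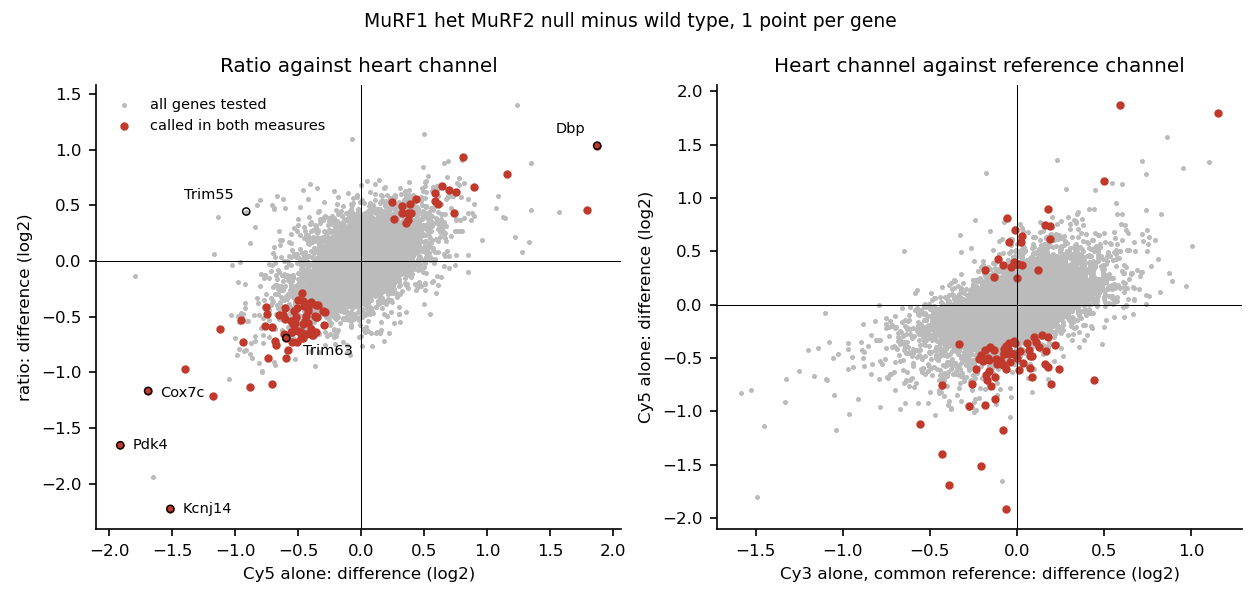
Difference of each gene between MuRF1 het MuRF2 null and wild type, on the left in the ratio (vertical) against Cy5 alone (horizontal), on the right in Cy5 alone (vertical) against Cy3 alone (horizontal), all log2. Red points are the 89 genes that passed in both measures; over all genes the Cy5 and Cy3 differences correlated at 0.578.

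The 12 largest falls included Kcnj14, Pdk4, Pirb, Cox7c, Plbd1, Pnpla2, Plin4, Skp1, Sdhb, Plin5 and Rap1gap, each taken only where the 4 arrays of both groups did not overlap in either measure. Pdk4, the kinase that shuts pyruvate out of the citric acid cycle by blocking pyruvate dehydrogenase and so favours fat as fuel, had ratios of -0.69, -1.57, -1.25 and -0.35 in MuRF1 het MuRF2 null and 0.61, 0.61, 0.88 and 0.67 in wild type hearts. The wild type hearts lay close together and all MuRF1 het MuRF2 null hearts lay below them, spread over more than a log2 unit. The fall was 3.15-fold (difference -1.66, SE 0.25, adjusted p = 0.00507, limma), with -1.91 in Cy5 alone and -0.063 in Cy3 alone. Pdk4 passed without any 1 array (adjusted p up to 0.0232) and with the authors' own log ratio (-1.55, adjusted p = 0.0232). Against the wild type arrays of each slide alone the difference was -1.57 and -1.74 (adjusted p = 0.0547 and 0.0903). Its relatives Pdk1 and Pdk2, named after their values were seen, differed by 0.32 and -0.0093 and did not pass (adjusted p = 0.416 and 0.987).

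Pnpla2, also known as ATGL, makes the first cut in stored triglyceride. Its ratio was 0.13, 0.11, 0.10 and 0.18 in MuRF1 het MuRF2 null and 0.99, 1.30, 0.76 and 0.95 in wild type hearts, a tight set of values in the first group. It fell 1.83-fold (difference -0.87, SE 0.15, adjusted p = 0.00952; -0.74 in Cy5 alone). Plin5 coats the lipid droplets of oxidative muscle and ties them to mitochondria. Its ratio was 1.57, 1.32, 1.66 and 1.71 against 2.44, 2.34, 2.05 and 2.32 (difference -0.73, SE 0.14, adjusted p = 0.0134), and it lost its call without wild type replicate 1 or 2 or MuRF1 het MuRF2 null replicate 2 (adjusted p up to 0.0542). Plin4, another coat protein of lipid droplets, was 0.56, 0.14, -0.0058 and 0.49 against 0.85, 1.30, 1.29 and 1.23 (difference -0.87, SE 0.16, adjusted p = 0.0117), and lost its call without wild type replicate 2 (0.0542). A second, dimmer Pnpla2 probe gave -0.44 in the ratio and -0.015 in Cy5 alone. Other genes of droplet and triglyceride handling, named after their values were seen, did not pass: Plin2 differed by 0.19, Plin3 by -0.30, the lipase Lipe by -0.27, the Pnpla2 activator Abhd5 by 0.35 and the Pnpla2 inhibitor G0s2 by -0.14.

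Cox7c, a small subunit of cytochrome c oxidase, had ratios of 0.89, 1.57, 1.62 and 1.16 against 2.50, 2.53, 2.42 and 2.46, with the wild type hearts close together. It fell 2.25-fold (difference -1.17, SE 0.19, adjusted p = 0.00588), with -1.69 in Cy5 alone and -0.39 in Cy3 alone. Sdhb, the iron-sulphur subunit of succinate dehydrogenase, was 1.67, 1.53, 1.46 and 1.22 against 2.17, 2.28 and 2.15 in 3 wild type hearts, the spot of the other being irregular (difference -0.73, SE 0.12, adjusted p = 0.00608).

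Kcnj14, an inward rectifier potassium channel, was well above background in Cy5 on all 4 wild type arrays and on no MuRF1 het MuRF2 null array. Its ratio was 1.71 to 2.71 in wild type hearts, and Cy5 stood at 7.98 on average there against 5.84 in MuRF1 het MuRF2 null hearts, after loess within arrays and Aquantile normalization, which evens out spot brightness between arrays. Since the dim group gives only a bound, from the dimmest signals that counted as above background, Kcnj14 was at least 4.23-fold lower on that scale, which is open to dye bias without swapped arrays (adjusted p of the ratio = 0.00952). In Cy5 alone, quantile normalized without the reference, the means were -1.52 apart (adjusted p = 0.00766), a smaller difference than that bound, so no bound holds over both scales. Its ratio was 0.74 or higher in the double null hearts and 0.11 to 2.68 in MuRF1 null MuRF2 het hearts, the second range reaching up into that of wild type hearts. Pirb, an inhibitory receptor of myeloid and B cells, was -0.13, -0.33, -0.86 and -0.64 against 0.54, 0.56, 1.07 and 0.72 and fell 2.32-fold (difference -1.21, SE 0.19, adjusted p = 0.00514), and its second probe gave -0.91. Plbd1, a phospholipase-like protein of lysosomes, was 0.015 to 0.44 against 0.93 to 1.42 (difference -0.97, adjusted p = 0.0262), and lost its call without any 1 array other than wild type replicate 3 (0.0551 to 0.0878). Skp1, the adaptor that holds F-box proteins in SCF ubiquitin ligases, was 0.18, 0.14, 0.15 and 0.046 against 1.08, 0.99, 0.72 and 0.94 (difference -0.80, SE 0.12, adjusted p = 0.00422). Rap1gap, which switches off the small GTPase Rap1, was -0.59 to -0.22 against -0.11 to 0.54 (difference -0.70, adjusted p = 0.00952). Of the 12 largest falls, 9 kept their call without any 1 array; Plin4, Plin5 and Plbd1 were the exceptions.

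The largest rise among named genes was in Dbp, a transcription factor driven by the circadian clock. Its ratio was 3.17, 3.06, 3.23 and 3.24 in MuRF1 het MuRF2 null hearts, close together, and 1.37, 1.89, 2.76 and 2.54 in wild type hearts. The wild type hearts split by slide, the first pair from slide 1 and the second pair from slide 3. The rise was 2.05-fold (difference 1.03, SE 0.25, adjusted p = 0.0435), with 1.87 in Cy5 alone and 0.59 in Cy3 alone. It was 1.55 against slide 1 (adjusted p = 0.0110) and 0.52 against slide 3 (0.450), and lost its call without any 1 array other than wild type replicate 3 (0.0552 to 0.145). Of 17 clock genes measured, Dbp alone passed in the ratio (5.88%, against 1.98% of all genes). The median ratio difference of the list was 0.21, against -0.0073 over all genes. The Dbp relatives Tef and Hlf, named after their values were seen, differed by 0.84 and 0.67 (adjusted p = 0.0957 and 0.110), and the activator Arntl by -0.56 (0.0581). Tef was 0.19, 0.74, 1.68 and 1.05 in wild type hearts and 1.73 to 1.78 in MuRF1 het MuRF2 null hearts. The hour at which hearts were taken is not given, and its part in these values was not tested.

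Ppp1r27, a regulatory protein of phosphatase 1 found in striated muscle, was 0.56, 0.19, 0.56 and 0.63 against -0.19, -0.32, -0.41 and -0.24 (difference 0.78, SE 0.16, adjusted p = 0.0171). Cfl2, the muscle form of the actin-severing protein cofilin, was 0.32, 0.47, 0.52 and 0.40 against -0.17, -0.30, -0.13 and -0.15 (difference 0.62, SE 0.093, adjusted p = 0.00451). Kmt5a, which methylates histone H4, was 1.69, 1.74, 1.56 and 1.72 against 0.86, 1.07, 1.12 and 1.11 (difference 0.64, SE 0.14, adjusted p = 0.0243), and its other probes gave 0.40 and 0.075. Non-overlap of the 2 groups in both measures was a condition for naming these 3 genes and the others of the 12 largest rises. Among secreted and surface proteins, Pdgfa, a platelet-derived growth factor chain, differed by 0.53 (SE 0.12, adjusted p = 0.0333; 0.14 at a dimmer probe), the neurotrophin Bdnf by 0.53 (0.0329) and the junction protein Jam3 by 0.51 (0.0379). Among enzymes, spermine synthase Sms differed by 0.61 (0.0145; 0.021 at a dimmer probe), the ceramide synthase Cers4 by 0.56 (0.0252; 0.36 at a dimmer probe) and prenylcysteine oxidase Pcyox1 by 0.51 (0.00952). The membrane protein Tmem51 and the nucleosome-binding protein Hmgn2 differed by 0.68 and 0.67 (0.00952 and 0.0262). Of the 12 largest rises, only Tmem51, Cfl2 and Pcyox1 passed without any 1 array; the highest adjusted p among the other 9 was 0.145.

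**Figure D3:**
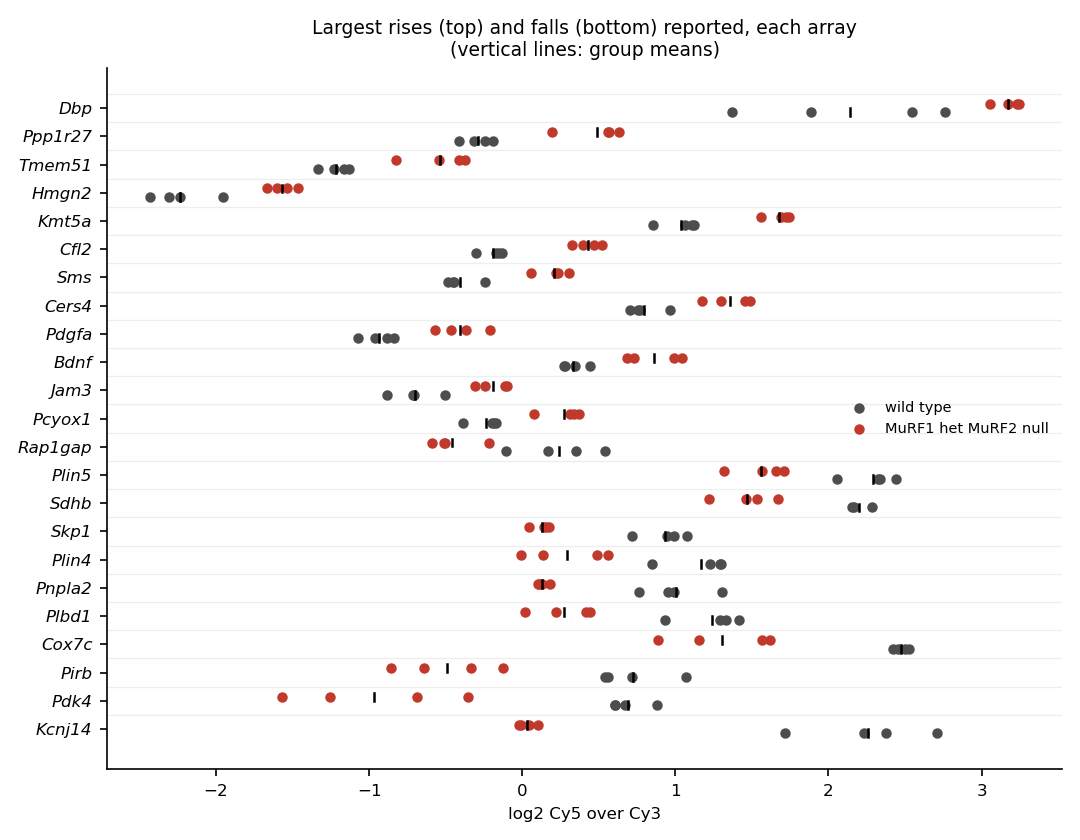
Log2 ratio of Cy5 over Cy3 on each array for the 12 largest rises and 11 of the 12 largest falls among genes that passed in both measures; grey points are wild type, red points MuRF1 het MuRF2 null, and black lines the group means. Genes were chosen so that no red point overlaps the grey points of its gene. The wild type points of Dbp and Kcnj14 are widely spread.

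Genes of fatty acid oxidation, which supplies most of the energy of the adult heart, had a median ratio difference of -0.16 over the 35 measured, against -0.0073 over all genes. In the ratio 3 of them passed (8.57%, against 1.98% of all genes), all lower. Pdk4 and Etfdh also passed in Cy5 alone. Etfdh, which hands electrons from fat oxidation to ubiquinone, was 1.73, 1.77, 1.76 and 1.88 against 2.29, 2.52, 2.30 and 2.38 (difference -0.59, SE 0.11, adjusted p = 0.0132). Its call was lost without wild type replicate 2 (0.0576) or MuRF1 het MuRF2 null replicate 1 (0.0519), and a dimmer probe gave -0.13. Acadl, a long-chain acyl-CoA dehydrogenase, differed by -0.62 in the ratio (adjusted p = 0.0379) but by 0.011 in Cy5 alone and 0.53 in Cy3. Cpt1b, the muscle carnitine transferase that admits fat to mitochondria, differed by 0.21 (0.526) and the uncoupling protein Ucp3 by -0.09 (0.814), both named after their values were seen. Over the list the Cy5 median was 0.0050, so the lower median of the ratio was not seen in the median of the heart channel. In Cy5 alone 4 of the 35 were lower (11.4%, against 3.11% of all genes) and 1 higher (2.86%, against 2.04%).

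The citric acid cycle list, 21 genes measured, had Sdhb as its single call in the ratio (4.76%, against 1.98% of all genes) and a median of -0.13. In Cy5 alone 3 of the 21 were lower (14.3%, against 3.11% of all genes) and none higher, with a median of -0.029, and of 0.079 in Cy3 alone. Of 60 genes of oxidative phosphorylation measured, Cox7c alone passed in both measures, and it was also the single call in the ratio (1.67%, against 1.98% of all genes). In Cy5 alone 11 of the 60 were lower (18.3%, against 3.11% of all genes) and none higher. The list median was -0.10 in the ratio, -0.11 in Cy5 alone and -0.046 in Cy3 alone, so the reference was lower too. The related subunits Cox7a1, Cox7a2 and Cox6a2, named after their values were seen, differed by -0.20, 0.07 and -0.026 and did not pass. Of 76 genes of the mitochondrial ribosome, Mrpl42 and Mrpl45 were lower in the ratio (-0.46 and -0.60) (2.63%, against 1.98% of all genes) and did not pass in Cy5 alone (-0.027 and -0.083). Other genes of that list passed in Cy5 alone, 11 lower (14.5%, against 3.11% of all genes) and none higher. The medians were -0.11 in the ratio, -0.14 in Cy5 alone and -0.093 in Cy3 alone, so here too the reference was lower. Mdh1, the cytosolic malate dehydrogenase, is outside these choices and was named after its value was seen; it fell by 0.53 (adjusted p = 0.0181), with a second probe at -0.15.

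Among the genes of protein turnover, 1 in 28 of the muscle ubiquitin ligases passed in both measures, and that was Trim63. Over all genes, 1.98% passed in the ratio and 0.722% in both. In the ratio the shares were 3.57% of the ligases, 2.86% of the proteasome, 3.85% of the autophagy and FoxO genes, 4.17% of the MuRF partners and 2.67% of the cytosolic ribosome. Fbxo32, the other well known ligase of muscle wasting, was named after its value was seen; it was 1.57 to 1.80 against 1.61 to 1.80 and did not pass (difference -0.0063, adjusted p = 0.992). Of 35 proteasome genes, Psmc5, an ATPase of the regulatory particle, fell by 0.49 (SE 0.089, adjusted p = 0.0108), and its dimmer probe gave -0.083. Of 26 genes of autophagy and FoxO action, Bnip3 was lower in the ratio (-0.76, adjusted p = 0.0319) but did not pass in Cy5 alone (-0.29, 0.430). Of 24 reported MuRF partners and substrates, Sumo2 was higher in the ratio (0.42, 0.0379) and did not pass in Cy5 alone (0.217). The 75 cytosolic ribosome genes had a median of 0.13 in the ratio and -0.02 in Cy5 alone, with Rpl3 up (0.43, adjusted p = 0.0440, 3 wild type hearts) and Rps6 down (-0.36, 0.0483). Both were lost without single arrays, Rpl3 without each of the 8 (0.0648 to 0.174) and Rps6 without each but wild type replicate 3 (0.0884 to 0.157).

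The heart stress genes were given whether or not they passed. Nppa, the atrial natriuretic peptide that ventricles re-express under load, was 2.94, 2.85, 4.03 and 2.92 in MuRF1 het MuRF2 null and 2.43, 2.41, 2.08 and 2.30 in wild type hearts. All 4 MuRF1 het MuRF2 null hearts were above all wild type hearts, and 1 of them was far above the rest, yet the ratio did not pass (difference 0.88, SE 0.36, adjusted p = 0.236), while Cy5 alone did (1.35, 0.0384). Myh7, the slow myosin of the fetal ventricle, was -1.41, -0.82, 0.39 and -0.81 against -1.75, -1.95, -2.48 and -2.09, also without overlap and with the same heart highest (difference 1.40, SE 0.72, adjusted p = 0.362). Acta1, skeletal actin, was -2.52, -2.94, -2.10 and -2.83 against -3.46, -3.72, -3.40 and -3.44 (difference 0.91, SE 0.28, adjusted p = 0.104). Nppb and Myh6 overlapped, with differences of 0.23 and 0.12 (adjusted p = 0.807 and 0.902). In the fit of the 8 arrays alone, Nppa, Myh7 and Acta1 passed (limma, adjusted p = 0.0115, 0.00521 and 0.00162), and Nppb and Myh6 did not (0.585 and 0.366). That fit takes the spread from the 2 compared groups only, and 2083 of 12330 genes passed in it in the ratio. The fit of all arrays adds the spread of the other genotypes, and 244 passed. Which spread suits these genes better was not tested. Against double null hearts, Nppa was lower by 2.02, Nppb by 1.51, Myh7 by 3.03 and Acta1 by 1.35, and Myh6 higher by 1.64 (adjusted p = 0.00143, 0.00480, 0.00718, 0.00310 and 0.00179). Against MuRF1 null MuRF2 het hearts, none of the 5 passed in the ratio (adjusted p = 0.123 to 0.944). Of the 29 fetal and hypertrophic genes measured, none passed against wild type in the ratio, and the list median was 0.12. An unadjusted p under 0.05 (limma) was found at 5 of the 29, against 1999 of all 12330 genes. In Cy5 alone 4 of the 29 were higher (13.8%, against 2.04% of all genes). The 9 atrial markers measured, Nppa among them, had a mean ratio of -0.12 to 0.0050 per array in MuRF1 het MuRF2 null and -0.36 to -0.18 in wild type hearts, with Bmp10, Fgf12 and Mybphl not above background on any array, and their part in the Nppa values was not tested.

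Cdkn1a, the cell cycle inhibitor p21, was -1.26, -1.32, -1.13 and -1.21 in MuRF1 het MuRF2 null hearts, close together, and -0.055, -0.34, -0.83 and -0.42 in wild type hearts. Its ratio was lower by 0.82 (SE 0.15, adjusted p = 0.00952), but Cy5 alone differed by -0.33 and did not pass (0.0855), with 0.38 in Cy3. E2f1 was above background on 2 MuRF1 het MuRF2 null arrays and no wild type array, and was not tested. Of 33 E2F targets and DNA replication genes, E2f6 alone passed in the ratio (3.03%, against 1.98% of all genes). It was lower in the ratio (-0.47, 0.0456) and not in Cy5 alone (0.154), and the list median was -0.0041. Of 29 interferon and antigen presentation genes, 26 had a ratio difference above 0. Their median was 0.25 in the ratio and 0.15 in Cy5 alone, against -0.0073 and -0.0026 over all genes. Ifit2 alone among them passed in the ratio (0.52, 0.0212), which is 3.45% of the list. It was not well above background on any wild type array, and did not pass in Cy5 alone (0.23, 0.157). Other calls made in the ratio and not in Cy5 alone were the sarcomere gene Myoz2 (-0.58), the stress response genes Atf5 (0.45) and Xbp1 (-0.62), the immediate early gene Ier3 (0.59) and the matrix protease inhibitor Timp2 (0.53). These were 2.86%, 8%, 5.26% and 2.63% of their lists in turn, against 1.98% of all genes. In Cy5 alone Timp2 differed in the opposite direction (-0.29), and Myoz2, Atf5, Xbp1 and Ier3 in the same (-0.25, 0.22, -0.19 and 0.21). A dimmer Myoz2 probe gave 0.31 in the ratio. No gene of the calcium and ion channel, heat shock, antioxidant, creatine kinase, TGF-beta, mitosis or growth hormone lists passed in the ratio (limma; 153 genes, 27 with an unadjusted p under 0.05, and 8 passing in Cy5 alone).

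**Figure D4:**
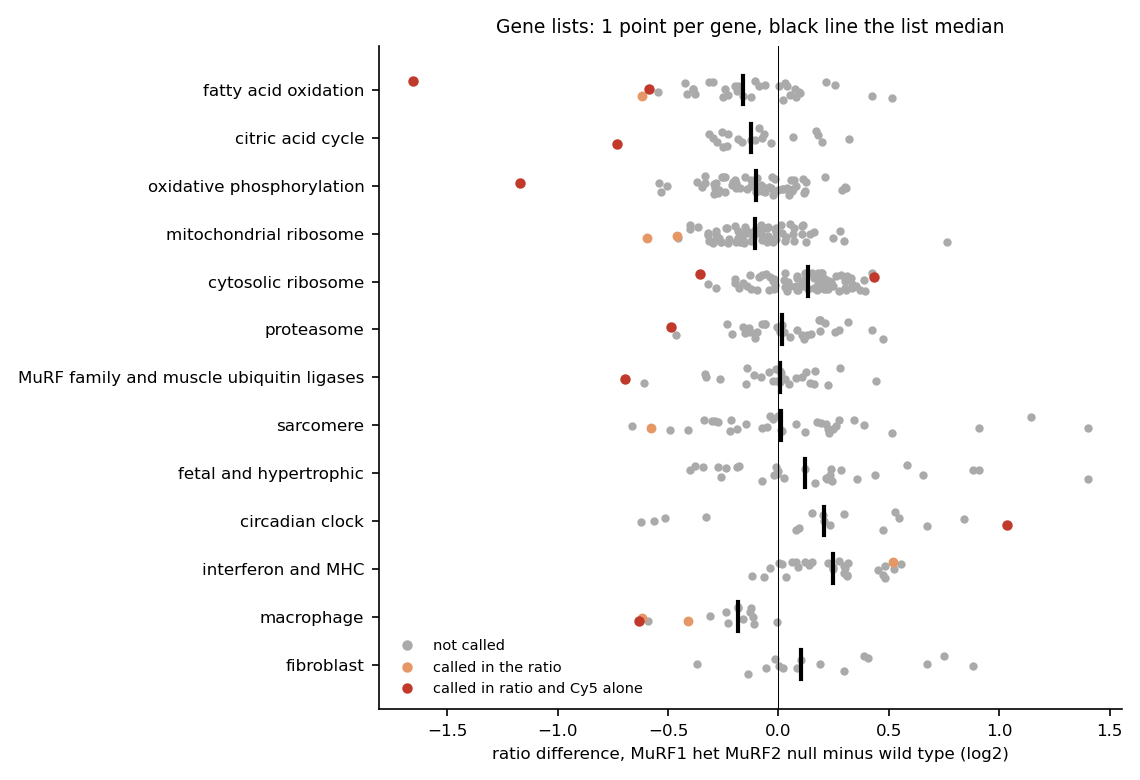
Log2 ratio differences (1 point per gene), MuRF1 het MuRF2 null minus wild type, of the measured genes of 13 lists; red points passed in the ratio and Cy5 alone, orange points in the ratio only, grey points in neither, and black lines are list medians. Medians run from -0.18 for macrophage markers to 0.25 for interferon and antigen presentation genes, and single genes such as Pdk4 and Cox7c stand far from their list.

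All 14 markers of ventricular cardiomyocytes were above background on all 8 arrays, as were those of endothelium (18), fibroblasts (15) and smooth muscle (14), and 12 of 14 lymphocyte markers were above it on none. Of the 61 markers of these first 4 types, none passed in the ratio (limma; 10 with an unadjusted p under 0.05, and 4 passing in Cy5 alone). Of 15 macrophage markers measured, 3 were lower in the ratio, Cd163, Adgre1 and C1qc (20%, against 1.98% of all genes), and 1, Cd163, fell in both measures (0.722% of all genes passed in both). Cd163, a scavenger receptor of tissue macrophages, was -0.32, -0.34, -0.50 and 0.19 against 0.20, 0.26, 0.74 and 0.35 (difference -0.63, SE 0.15, adjusted p = 0.0458), and passed in 1 of the 8 fits that left out an array (the others 0.0662 to 0.135). Adgre1 differed by -0.62 (0.0390) and C1qc by -0.41 (0.0499), while C1qa, C1qb, Cd68, Csf1r and Mrc1 did not pass (differences of -0.23 to -0.0046); all but Cd163 were named after their values were seen. C1qc lies within 10 Mb of Trim63 on chromosome 4. The mean ratio of the 15 markers was -0.25 to -0.14 per array in MuRF1 het MuRF2 null and -0.12 to 0.25 in wild type hearts. Pirb, which myeloid cells carry, fell beside them, and the part of cell number in its fall was not tested. The 15 fibroblast markers had a mean of -1.18 to -0.96 against -1.40 to -1.20, also without overlap. Among all single genes tested, 20.7% did not overlap in the ratio, but a share of single genes is no background for list means. The means of other lists, such as fatty acid oxidation and the mitochondrial ribosome, did not overlap either. As single genes, 3 of the 15 fibroblast and 0 of the 15 macrophage markers did not overlap in both measures, against 10.6% of all genes. In Cy5 alone 3 of the 15 fibroblast markers were higher (20%, against 2.04% of all genes). The lung markers were present too, 6 of 10 above background on all 8 arrays, with none passing and a mean of -1.78 to -1.66 against -1.94 to -1.64.

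Where MuRF1 het MuRF2 null hearts stood apart from the other mutants was tested directly, without wild type arrays. They differed from double null hearts at 3251 genes in the ratio (26.4%) and 1744 in both measures (14.1%), and from MuRF1 null MuRF2 het hearts at 1051 (8.52%) and 377 (3.06%). Pdk4 was 0.74 to 1.05 in double null and 0.34 to 1.66 in MuRF1 null MuRF2 het hearts, so MuRF1 het MuRF2 null hearts lay lowest of all 16, by 1.86 and 1.88 (adjusted p = 0.000215 and 0.00182). Skp1 was lower than in double null hearts by 1.03 and than in MuRF1 null MuRF2 het hearts by 0.94 (adjusted p = 8.95e-05 and 0.00168). Kmt5a was higher by 0.91 and 0.68, Cers4 by 0.94 and 0.74, and Pdgfa by 0.85 and 0.60 (adjusted p of 0.000165 to 0.0121 over these). All 5 passed in Cy5 alone as well. Cox7c and Cfl2 differed from double null hearts by -0.084 and -0.02 in the ratio, which did not pass (adjusted p = 0.770 and 0.891), while Cox7c passed in Cy5 alone (-0.69). Sms was higher than in wild type but lower than in double null hearts, by 0.43 (adjusted p = 0.0170). These differences also lie between slides and scan days, which cannot be told apart from genotype here. The arrays of both other mutants also had fewer Cy5 probes above background, and the part of this in the differences was not tested.

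Genes near the targeted loci were counted, since a stretch of chromosome travels with a targeted allele. Within 10 Mb of Trim63 on chromosome 4, by the RefSeq map, 7 of 210 genes passed in both measures (3.33%), against 0.648% of the 9872 genes on other chromosomes. These were Rap1gap, Sdhb, Epb41 and Pnrc2, which fell, and Tmem51, Tfap2e and Hmgn2, which rose. Over 10 to 20 Mb away it was 3 of 154 (1.95%), namely Med8, Pex14 and Hyi, and farther along the chromosome 5 of 337 (1.48%). Hyi, a transcribed pseudogene in RefSeq and named after its value was seen, rose 1.91-fold (difference 0.93, adjusted p = 0.00381) and lies over 10 Mb from Trim63. Hmgn2 lies 0.350 Mb away, with ratios of -1.67, -1.54, -1.46 and -1.60 against -2.31, -2.43, -1.96 and -2.23. Tmem51 lies 7.72 Mb away, with -0.83, -0.41, -0.54 and -0.37 against -1.13, -1.33, -1.23 and -1.17, and Sdhb, described above, 6.65 Mb away. Tfap2e, without a value in MuRF1 het MuRF2 null replicate 1, differed from wild type by 0.46 in the ratio (limma, adjusted p = 0.0458). Its difference was 1.80 in Cy5 alone and 1.15 in Cy3 alone, so the reference signal was higher too. Against double null hearts, Rap1gap (-0.62, adjusted p = 0.00265), Hyi (-0.64, 0.00264) and Pex14 (-0.53, 0.00539) passed in the ratio and in Cy5 alone. The other 7 of these 10 genes did not pass in the ratio: Hmgn2, Tmem51 and Sdhb differed by 0.035, 0.18 and 0.11 (adjusted p = 0.880, 0.287 and 0.466), and Epb41, Pnrc2, Tfap2e and Med8 by -0.21 to 0.12 (0.0704 to 0.522). In Cy5 alone Tfap2e differed by 0.94 and passed, and Hmgn2, Tmem51 and Sdhb differed by 0.54, 0.33 and 0.38 and passed. Within 10 Mb of Trim55 on chromosome 3, 0 of 27 genes passed in the ratio (limma; 3 with an unadjusted p under 0.05, and 2 passing in Cy5 alone). The shares are descriptions with no test, and the parts of the strain of flanking sequence and of the slide were not tested.

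**Figure D5:**
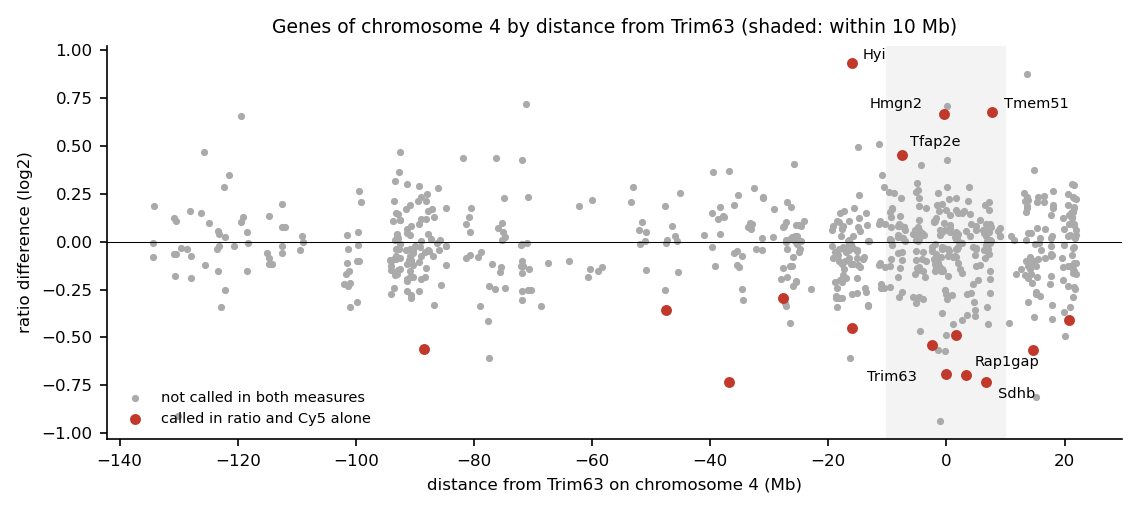
Ratio difference, MuRF1 het MuRF2 null minus wild type, of each gene on chromosome 4 against its distance from Trim63; red points passed in the ratio and Cy5 alone, and the shading covers 10 Mb on each side. Besides Trim63, 7 red points lie in the shaded stretch, some higher and some lower than wild type.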

How the data were processed

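The files are scanner output of Agilent 4x44K mouse arrays with 2 colours, 16 arrays in 4 genotypes; per the file headers, Feature Extraction read the spots. Intensity values of the red and green spot means and backgrounds were used as deposited. The log10 ratio that the authors deposited per spot, background-subtracted and dye-normalized per the file headers, and the deposited series table, whose log2 values matched it, served as alternatives. The labels name Cy3 as the dye; the channel entries put heart RNA in Cy5. No array had its dyes swapped.

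Backgrounds were corrected with normexp (offset 50), ratios normalized by loess within arrays, control and irregular spots left out, and spots of a probe averaged (41174 probes). Cy5 alone and Cy3 alone were quantile normalized over the arrays. Probes well above background in Cy5 on at least 4 of 16 arrays were kept (16810), and the brightest stood for each gene (12330 genes tested, 1 more without a value). Names came from RefSeq by accession (22951 probes), symbol (6659) or synonym (3109), and otherwise from the files (8455). limma 3.58.1 in R 4.3.3 fitted all 16 arrays with 1 mean per genotype, so that the groups share 1 estimate of the spread. P-values were adjusted by Benjamini-Hochberg over all genes tested, with a threshold of 0.05. The number of arrays limits the precision. The scripts were tested on simulated data. Same-numbered arrays of the 2 groups deviated together with correlations of -0.096, -0.025, -0.087 and 0.093, so the numbers pair no samples. No arrays were identical.

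Genes named: Trim63, Trim55, Trim54, Nppa, Nppb, Myh7, Myh6, Acta1, E2f1 and Cdkn1a always; the 12 largest rises and falls among genes that passed in both measures with no overlap of arrays; and up to 4 members of each list that passed in both. Clone names, predicted genes and pseudogenes were skipped. A few results are not reported here. The members, lists and rules were chosen with earlier results of these data known. Alternatives changed the offset, normalization, filter, probe rule, arrays in the fit, slide as a block, array weights and single arrays left out.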

Additional observations from a re-analysis of the deposited data

Results flagged for a closer look

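In groups of 4 arrays, a value was taken to stand apart when its gap to the nearest other, over the group's range, exceeded Dixon's 95% critical value, which chance gives in about 1 group in 20. Of 86 groups examined, 6 held such a value. Nppa stood at 4.03 in MuRF1 het MuRF2 null replicate 3, with the other hearts at 2.85 to 2.94. Ppp1r27 stood at 0.19 in MuRF1 het MuRF2 null replicate 2, below 0.56 to 0.63. In wild type hearts, Sms stood at -0.24 in replicate 1, Pcyox1 at -0.39 in replicate 2, Plin4 at 0.85 in replicate 1 and Psmc5 at 0.81 in replicate 1.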

How the results depend on the processing

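The counts moved strongly with the processing. In the ratio, 244 genes became 23 with the authors' log ratio, 23 with the series table, 636 with Cy5 alone as the measure, 2083 with only the 8 arrays, 61 and 0 with wild type arrays of slide 1 and of slide 3 only, 3008 with array weights and 1038 with Cy5 brightness as a covariate. Median centring in place of loess gave 2551, of which 0.745% rose against 32.8%, as it moved the median gene by -0.33; centring arrays on the genes tested, chosen after seeing the data, gave 101. Genes that passed in both measures, 89, became 7 and 7, 993, 24 and 0, 1526, 221 and 30 under the same settings in turn (without Cy5 alone and median centring), and 42 with the 75th percentile. Risen shares were 43.4% with an offset of 16, 17.4% with the authors' log ratio, 43.7% with 8 arrays and 44.1% with weights. The 636 of Cy5 alone became 218 with the 75th percentile, 3075 with 8 arrays, 230 and 149 by wild type slide, 4223 with weights and, chosen after seeing the data, 973 after loess and Aquantile. The causes were not tested. Leaving out single arrays gave 69 to 187, 361 to 487 and 23 to 72 genes in the ratio, Cy5 alone and both. The replicate number as a block gave 152 and 64 genes, though the numbers show no pairing; slide as a random block gave 272 and 89. Offset 16, scaling, both filters and the mean of probes kept the counts within 1.5 times. For the named genes, 678 of 974 recomputed differences kept direction and side of the threshold, 269 lost their call, 11 gained one and 16 reversed. Reversed were Trim55 (-0.20 with median centring, -0.91 in Cy5 alone), Trim54 (-0.47 with median centring, -0.013 with slide 1, -0.14 recentred), Rpl3 (-0.23 with median centring), Myh6 (-0.041 with the authors' log ratio and the series table, -0.54 with median centring, -0.21 recentred) and Nppb (-0.0010 with the authors' log ratio and the series table, -0.21 with median centring, -0.17 with slide 1, -0.024 without wild type replicate 3, -0.016 without MuRF1 het MuRF2 null replicate 3, and -0.024 to 0.43 over single arrays left out). Of 1000 recomputed list medians, 125 moved by more than the spread between arrays.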
